A study of Mus musculus with 9 samples.

Results

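The genes that write, copy and remove DNA methylation were followed in mouse embryonic stem (ES) cells after induced deletion of Zbtb11, a BTB-domain zinc finger gene. The set was chosen by name, by a rule that uses no measured value, although earlier results of these data were known when it was drawn up: the DNA methyltransferases Dnmt1, Dnmt3a and Dnmt3b, their cofactors Dnmt3l and Uhrf1, the dioxygenases Tet1, Tet2 and Tet3, and the DNA glycosylase Tdg. These are 9 of 37310 genes counted, each gene name matched 1 identifier, and all 9 passed the filter on low counts. All cells derived from the E14 line and grew without feeder cells in serum and LIF, the cytokine that keeps ES cells undifferentiated. In the group labelled Zbtb11 KO, cells carrying Zbtb11lox/lox and an ERt2-Cre recombinase gene at Rosa26 received 4-hydroxytamoxifen (4OHT) at 250 nM for 72 h, a ligand that switches ERt2-Cre on. In the 4OHT control, cells with wild-type Zbtb11 and Rosa26 loci received 4OHT for the same time. In the ethanol (EtOH) control, the floxed ERt2-Cre cells received only ethanol, the solvent of 4OHT, for 72 h. Each group had 3 RNA sequencing libraries made from total RNA after removal of ribosomal RNA. Line and drug both separate the 4OHT control from the EtOH control, and their effects cannot be told apart. Labelled KO cells differ from the EtOH control in drug as well as in the deletion. They differ from the 4OHT control in line and in carrying ERt2-Cre. No group had ERt2-Cre switched on without the floxed gene, so deletion and Cre activity cannot be told apart in either comparison. DNA methylation itself was not analysed here.

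Mammalian DNA is methylated mainly on cytosines that precede guanine (CpG sites). Dnmt3a and Dnmt3b place new marks (de novo methylation), and Dnmt3l, which has no catalytic activity of its own, stimulates both. Uhrf1 recognises DNA that is methylated on 1 strand after replication and directs Dnmt1 to copy the mark to the new strand. Tet enzymes oxidise methylated cytosine, and Tdg excises the more oxidised forms so that base excision repair can insert an unmodified cytosine. Mouse ES cells express writers and erasers together, and in serum and LIF the de novo enzymes, Dnmt3l and Tet1 are known to be abundant.

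Promoter sequence was examined for letters that members might share. The E2F letters were chosen knowing that some members fell alongside DNA replication genes, which E2F factors are known to regulate. RefSeq (GRCm38.p6) gave 16 start-site windows for the 9 genes, each of 300 bases around a start. The letters TTTCCCGC, TTTCGCGC, TTTGCCGC and TTTGGCGC, which are forms of the E2F site, were searched on both strands. They were found in 2 of the 16 windows, against 2.26% of all 32851 RefSeq windows. The 2 windows belong to Uhrf1 and Dnmt1, the maintenance pair. Both genes also have other start windows without a match, and which start these cells used was not examined. The 2 windows with a match are printed with that of Dnmt3b, the member whose level fell most, where these letters were not found. Capitals mark the E2F letters or their reverse complement.
Uhrf1 chr17:56304063-56304362 plus strand: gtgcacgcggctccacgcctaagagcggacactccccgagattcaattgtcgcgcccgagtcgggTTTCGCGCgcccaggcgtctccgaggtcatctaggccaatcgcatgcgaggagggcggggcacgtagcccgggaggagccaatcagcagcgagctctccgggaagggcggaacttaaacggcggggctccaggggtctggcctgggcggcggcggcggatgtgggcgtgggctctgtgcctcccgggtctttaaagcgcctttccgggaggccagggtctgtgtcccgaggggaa
Dnmt1 chr9:20952574-20952873 minus strand: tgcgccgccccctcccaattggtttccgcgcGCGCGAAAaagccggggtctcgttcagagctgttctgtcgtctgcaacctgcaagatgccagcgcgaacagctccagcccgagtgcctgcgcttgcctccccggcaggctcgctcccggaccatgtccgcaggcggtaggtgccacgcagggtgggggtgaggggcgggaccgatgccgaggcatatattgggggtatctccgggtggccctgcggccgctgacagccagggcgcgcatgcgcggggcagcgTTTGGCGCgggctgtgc
Dnmt3b chr2:153649199-153649498 plus strand: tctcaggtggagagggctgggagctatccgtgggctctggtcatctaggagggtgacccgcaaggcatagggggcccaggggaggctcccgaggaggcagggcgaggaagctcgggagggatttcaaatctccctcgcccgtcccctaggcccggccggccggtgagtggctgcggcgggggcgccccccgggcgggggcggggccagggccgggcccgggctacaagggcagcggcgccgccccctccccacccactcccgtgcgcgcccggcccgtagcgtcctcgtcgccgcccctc
Counted from the start, the Uhrf1 match begins at -185. In the Dnmt1 window 1 match begins at -219 and another at 34. Neither gene's matches overlapped a CCAAT box (CCAAT on either strand), which was present in 6 of the 16 windows and in 37.4% of all windows. The letters CCGGAAGT, a form of the site of GABP (an ETS-family factor), were in none of the 16 windows and in 3.89% of all. The 16 windows held 2 to 57 CpG sites, with the most in the Tet2 window, 33 in each of the Uhrf1 and Dnmt1 windows printed, 30 in that of Dnmt3b, and 3 to 6 in the 3 windows of Dnmt3l. A match of letters is a description of the sequence and not evidence of a bound site. Whether E2F factors had a part in the change of any member was not tested.

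Libraries held 16909139 to 23544893 gene counts. On the first principal component of log2 CPM (counts-per-million), with 48.7% of the variance, the labelled KO libraries stood apart from all control libraries. Zbtb11 itself had 369, 386 and 376 CPM in libraries labelled KO, 364, 378 and 361 CPM in 4OHT controls and 348, 359 and 359.8 CPM in EtOH controls. Gene-level counts were thus not reduced under the KO label, and because the sources used here do not give the exons between the loxP sites, they do not check it. The 12 markers of ES cell identity were all detected in each group, with summed levels of 4699 to 5128 CPM in labelled KO cells, 5015 to 5812 CPM in 4OHT controls and 4997 to 5316 CPM in EtOH controls. Reads assigned to no gene made up 32.7% to 33.8% of reads in labelled KO libraries, 26.7% to 27.5% in the 4OHT control and 26.4% to 28.7% in the EtOH control. Whether that difference bears on the enzymes was not tested. In bulk RNA, fewer cells of a type and less RNA per cell cannot be told apart.

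In labelled KO cells most transcripts for de novo and maintenance methylation fell, and in the fit without pairing neither a Tet gene nor Tdg was called. Against the EtOH control, Dnmt3b, Dnmt3l, Uhrf1 and Dnmt1 fell, which is 4 of 9 members called lower (edgeR, Benjamini-Hochberg adjusted p under 0.05), where 14.2% of all 16224 tested genes were called lower and 27.2% were called in either direction. Against the 4OHT control, Dnmt3b, Dnmt3l, Dnmt3a and Uhrf1 fell, again 4 of 9, where 19.8% of tested genes were called lower and 38.9% in either direction. No member was called higher in either comparison, where 13.0% of tested genes were called higher against the EtOH control and 3103 of 16224 against the 4OHT control. The replicate numbers pair the libraries, and with the number as a block 6 of 9 members were called lower against the EtOH control (Dnmt3a and Tet2 in addition) and 5 against the 4OHT control (Tet2 in addition). Many more of all 16224 tested genes were called as well, in either direction. They numbered 6936 against the EtOH control (4417 without the block) and 8337 against the 4OHT control (6319 without it). The median log2 fold change of the 9 members was -0.19 against the EtOH control and -0.20 against the 4OHT control, and over all tested genes it was 0.01 and 0.02. Both comparisons use the same labelled KO libraries, so they are not independent of each other. When only library totals were used for scaling, the share of called genes that were higher moved to 66.5% against the EtOH control, where it was 47.8% with TMM scaling (edgeR's trimmed mean of M values). Against the 4OHT control that share moved to 64.4%, where it was 49.1% with TMM, and the median of all genes shifted by less than 0.1 on the log2 scale in both comparisons.

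**Figure D1:**
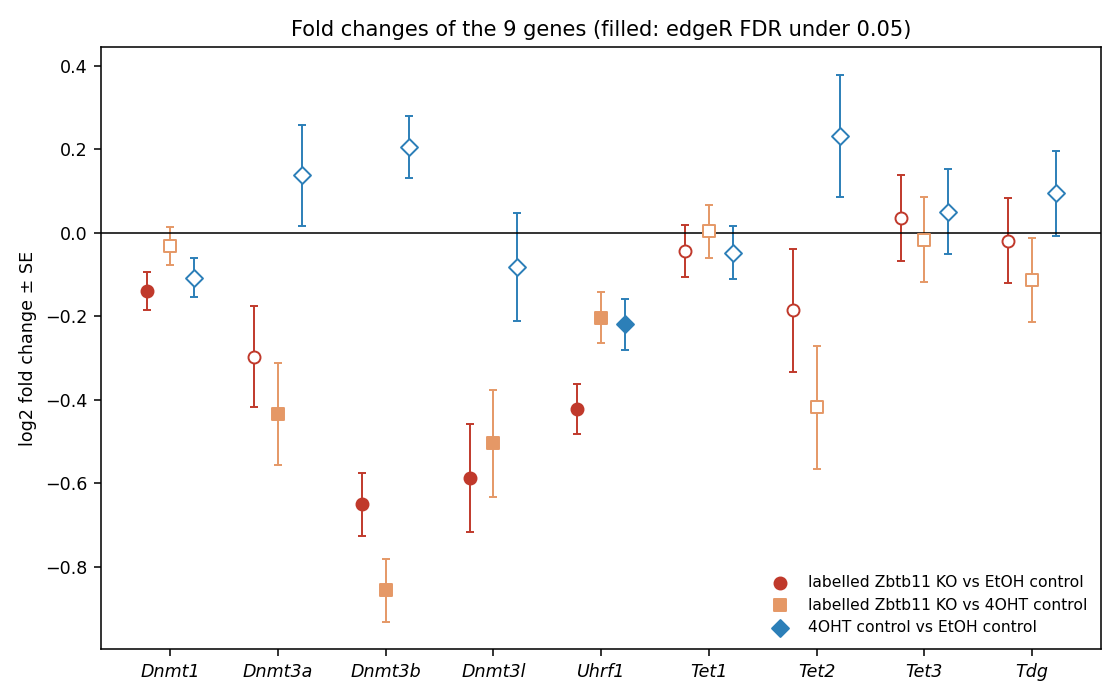
Log2 fold change with its SE for each of the 9 genes in the 3 comparisons, with filled symbols where the edgeR adjusted p was under 0.05. Dnmt3b lies lowest in both comparisons of labelled KO cells (-0.65 and -0.86), and Tet1, Tet3 and Tdg lie near 0.

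Dnmt3b (ENSMUSG00000027478.9, chromosome 2), the de novo enzyme that is typical of pluripotent cells, had 186, 208 and 175 CPM in labelled KO libraries, 310.1, 366 and 356 CPM in 4OHT controls, and 275, 314 and 305 CPM in EtOH controls. Every labelled KO library lay well below every library of both controls. The log2 fold change was -0.65 against the EtOH control (SE 0.08, edgeR adjusted p = 2.3e-05), or 0.637 times its level. Relative to the 4OHT control it was -0.86 (SE 0.08, adjusted p = 6.7e-07), or 0.552 times. Of all 9 genes Dnmt3b had the smallest p in both comparisons, and its call held in 16 of 16 alternative analyses of each.

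Dnmt3l (ENSMUSG00000000730.7, chromosome 10), the inactive homologue that binds Dnmt3a and Dnmt3b and stimulates them, had 305, 321 and 227 CPM in labelled KO libraries, 419, 436 and 356 CPM in 4OHT controls, and 454, 428 and 399.7 CPM in EtOH controls. The labelled KO libraries again lay below all control libraries, and replicate 3 was the lowest of each group. Dnmt3l fell by 0.59 on the log2 scale against the EtOH control (SE 0.13, adjusted p = 0.0099) and by 0.50 against the 4OHT control (SE 0.13, adjusted p = 0.014). Both calls held in 16 of 16 alternatives. An exon of Aire, on the opposite strand, shares 67 bases (2.24%) of the annotated exon sequence of Dnmt3l, and Aire had 388 to 934 counts per library. Whether strand was used in counting is not stated in the sources used here, so a small part of either count may belong to the other.

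Dnmt3a (ENSMUSG00000020661.9, chromosome 12), the other de novo enzyme, had 178, 239.7 and 216 CPM in labelled KO libraries, 252, 332 and 274 CPM in 4OHT controls, and 244, 267 and 267 CPM in EtOH controls. No labelled KO library reached a control library, but the highest, replicate 2, came close to the lowest of the EtOH control, replicate 1. Dnmt3a fell against the 4OHT control (log2 fold change -0.43, SE 0.12, adjusted p = 0.019), and that call held in 16 of 16 alternatives. Against the EtOH control the log2 fold change was -0.30 (SE 0.12, adjusted p = 0.10) and was not called. There it was called with the replicate number as a block (-0.31, adjusted p = 5.5e-05), with DESeq2 (0.015), without a filter on low counts (1.5e-05), in the fit of the groups compared alone (0.032), without KO replicate 2 (-0.41, adjusted p = 0.040) and without 4OHT control replicate 2 (0.034). Over its 16 alternatives the adjusted p ran from 1.5e-05 to 0.23. Without the filter the log2 fold change stayed at -0.30, and why the adjusted p was so small was not examined.

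**Figure D2:**
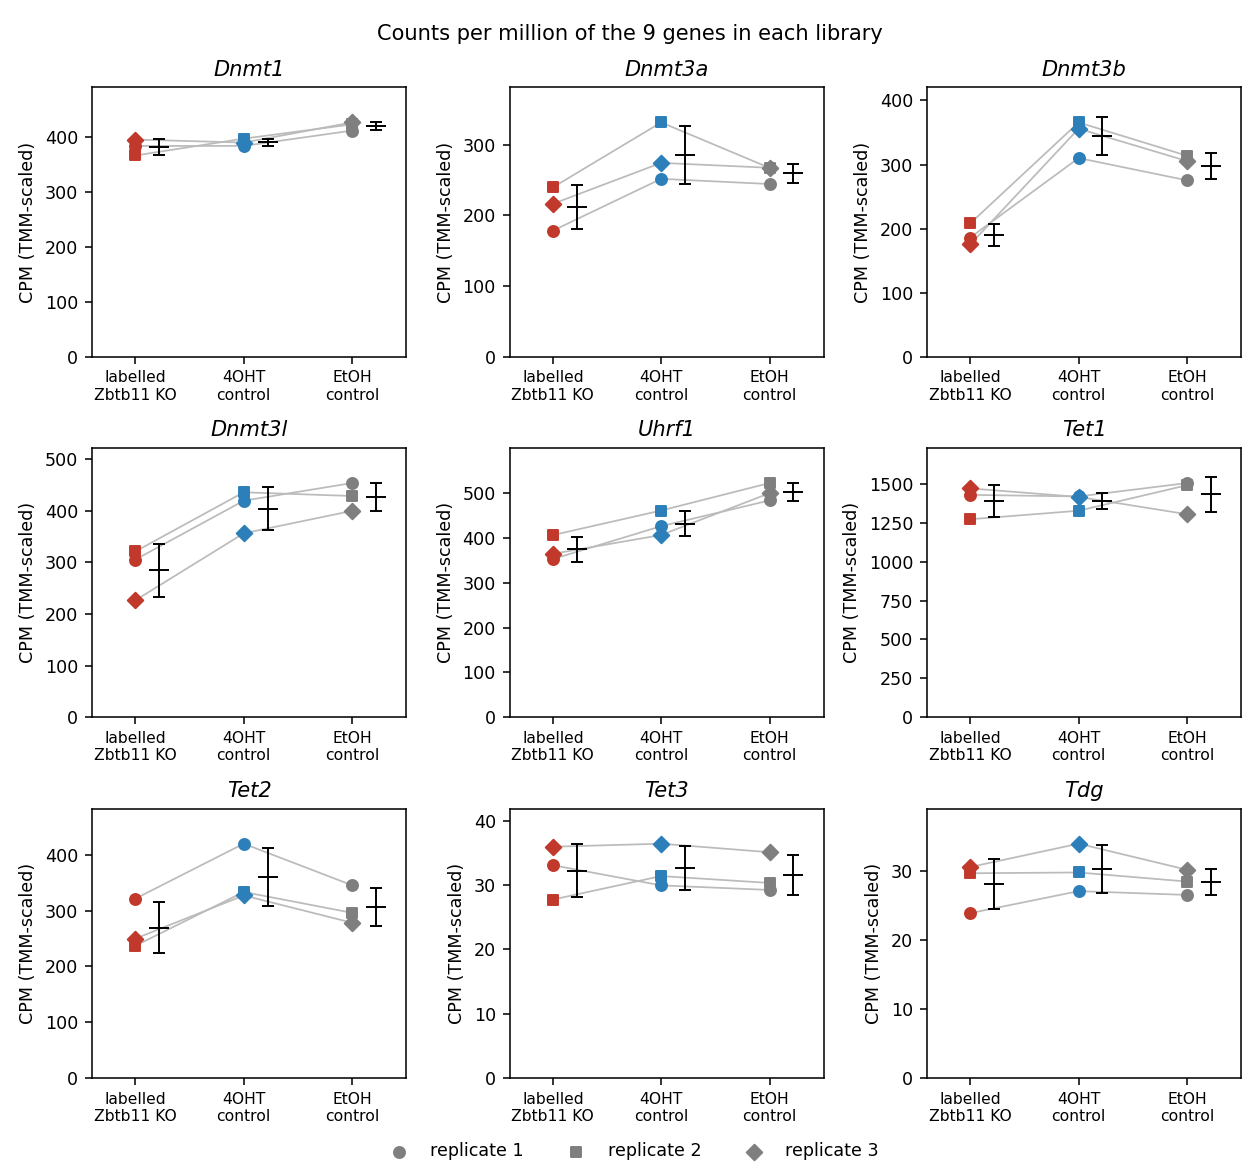
TMM-scaled CPM of the 9 genes in each library (points, labelled by replicate number) with the group mean, for labelled KO cells, the 4OHT control and the EtOH control. For Dnmt3a, Dnmt3b, Dnmt3l and Uhrf1 every labelled KO point lies below every control point, as with KO Dnmt3b at 175 to 208 CPM against 275 to 366 CPM in the controls.

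Both genes of the maintenance pair fell against the EtOH control, and in both the mean of the 4OHT control lay between those of the other groups. Uhrf1 (ENSMUSG00000001228.8, chromosome 17), the reader of half-methylated DNA, had 352, 406 and 364 CPM in labelled KO libraries, 426, 460.5 and 406 CPM in 4OHT controls, and 483, 522 and 499 CPM in EtOH controls. The 3 groups did not overlap, although the highest labelled KO library and the lowest library of the 4OHT control differed by less than 1 CPM. Uhrf1 fell by 0.42 against the EtOH control (SE 0.06, edgeR adjusted p = 0.00012), a call that held in 16 of 16 alternatives. A fall of 0.20 was called relative to the 4OHT control (log2 fold change -0.20, SE 0.06, adjusted p = 0.015). That second call ended with library totals (-0.12, adjusted p = 0.11), without KO replicate 1 (0.075), without KO replicate 3 (0.050) and without 4OHT control replicate 2 (0.084), and its adjusted p ran from 7e-06 to 0.11 over 16 alternatives. Uhrf1 was also lower in the 4OHT control than in the EtOH control (log2 fold change -0.22, SE 0.06, adjusted p = 0.020). It was the 1 of 9 members called between the controls, where 8.75% of tested genes were called lower, 9.66% higher and 18.4% in either direction. This call ended without 4OHT control replicate 1 (0.052) or 3 (0.090) or EtOH control replicate 2 (0.091) or 3 (0.050), within a range of 4.7e-06 to 0.091.

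Dnmt1 (ENSMUSG00000004099.8, chromosome 9), the maintenance methyltransferase, had 384, 366 and 395 CPM in labelled KO libraries, 384, 397 and 389.9 CPM in 4OHT controls, and 412, 423 and 427 CPM in EtOH controls. Labelled KO libraries lay below the EtOH control and overlapped the 4OHT control. Dnmt1 fell by 0.14 against the EtOH control (SE 0.05, adjusted p = 0.035), the smallest of the called changes. This call ended with library totals (-0.07, adjusted p = 0.27), without a filter on low counts (0.073), in the fit of the groups compared alone (0.063), without EtOH control replicate 2 (0.094) or 3 (0.10), and without KO replicate 1 (0.063) or 2 (0.076), and its adjusted p ran from 0.0012 to 0.27. Against the 4OHT control the log2 fold change was -0.03 (SE 0.05, adjusted p = 0.62), or 0.05 with library totals.

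Many genes of DNA replication were lower as well. Of 41 S phase genes, a list without the 9 members, 30 fell and none rose in labelled KO cells against the EtOH control (median log2 fold change -0.23), where 14.2% of all tested genes were called lower. Relative to the 4OHT control 19 of the 41 fell and 2 rose (median -0.13), where 19.8% of tested genes were called lower and Dnmt1 was not called. Their summed level was 6610.5 to 7221 CPM in labelled KO libraries, 7456 to 8111 CPM in 4OHT controls and 7878 to 8453 CPM in EtOH controls. The DNA polymerase subunits Pold1 (-0.49), Pola2 (-0.42) and Pola1 (-0.36) fell against the EtOH control, where Uhrf1 fell by 0.42. The same subunits had -0.26 (Pold1), -0.38 (Pola2) and -0.43 (Pola1) against the 4OHT control, all called, where Uhrf1 fell by 0.20. With Ung, they were picked for the smallest p of this list against the EtOH control, so calls there follow from the choice. Ung fell by 0.41 against the EtOH control and had 0.03 against the 4OHT control (edgeR adjusted p = 0.75), where it was not called. The part of S phase genes in the change of Uhrf1, Dnmt1 or Dnmt3b was not tested.

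The Tet genes differed from one another. Tet1 (ENSMUSG00000047146.8, chromosome 10), the main Tet enzyme of ES cells, had 1429, 1272 and 1470.4 CPM in labelled KO libraries, 1419, 1327 and 1416 CPM in 4OHT controls, and 1505, 1490.8 and 1305 CPM in EtOH controls. The 3 groups overlapped. Its log2 fold change was -0.04 against the EtOH control (SE 0.06, adjusted p = 0.64, or 0.03 with library totals) and 0.00 against the 4OHT control (SE 0.06, adjusted p = 0.97), and it was called in none of the 16 alternatives of either comparison.

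Tet2 (ENSMUSG00000040943.7, chromosome 3), the second Tet enzyme of ES cells by level, had 321, 237 and 249.7 CPM in labelled KO libraries, 419.9, 333 and 327 CPM in 4OHT controls, and 345, 296 and 278 CPM in EtOH controls. Every labelled KO library lay below the 4OHT control, whereas labelled KO and EtOH control libraries overlapped, and replicate 1 was the highest of each group. The log2 fold change against the 4OHT control was -0.42 (SE 0.15, adjusted p = 0.055), just outside the threshold. It was called with the replicate block (-0.42, adjusted p = 3.4e-11), with RLE scaling factors (0.043), with DESeq2 (0.026), without a filter on low counts (2.8e-11), and without EtOH control replicate 1 (0.045), KO replicate 1 (-0.57, adjusted p = 0.0064) or 4OHT control replicate 3 (0.046), and its adjusted p ran from 2.8e-11 to 0.15. Against the EtOH control the log2 fold change was -0.19 (SE 0.15, adjusted p = 0.39), and it was called with the block (-0.19, adjusted p = 8.4e-05) and without a filter (0.010), within a range of 8.4e-05 to 0.70. Without the filter the log2 fold change against the 4OHT control stayed at -0.42, and why its adjusted p was so small was not examined. Paired by replicate number, Tet2 in labelled KO cells differed from the 4OHT control by log2 ratios of -0.39, -0.49 and -0.39. From the EtOH control it differed by -0.10, -0.32 and -0.16.

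Tet3 and Tdg were the members with the fewest transcripts. Tet3 (ENSMUSG00000034832.8, chromosome 6), which is best known from the zygote and from neurons, had 33.1, 27.7 and 35.9 CPM in labelled KO libraries, 29.9, 31.4 and 36.4 CPM in 4OHT controls, and 29.2, 30.3 and 35.1 CPM in EtOH controls. Tdg (ENSMUSG00000034674.11, chromosome 10), which removes oxidised methylcytosine, had 23.9, 29.7 and 30.6 CPM in labelled KO libraries, 27.1, 29.8 and 34.0 CPM in 4OHT controls, and 26.5, 28.5 and 30.2 CPM in EtOH controls. In both genes all 3 groups overlapped, and replicate 3 was the highest library of each group. Against the EtOH control the log2 fold changes were 0.04 for Tet3 (SE 0.10, adjusted p = 0.83) and -0.02 for Tdg (SE 0.10, adjusted p = 0.91; 0.05 with library totals). Against the 4OHT control they were -0.02 for Tet3 (SE 0.10, adjusted p = 0.92; 0.07 with library totals) and -0.11 for Tdg (SE 0.10, adjusted p = 0.40). Of the annotated exon sequence of Tdg, 6.83% is shared with Glt8d2 on the opposite strand, which had 22 to 55 counts per library, and the processed copy Tdg-ps had 0 to 3 counts.

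Counted by separation instead of by the test, 5 of 9 members had every labelled KO library below every EtOH control library (Dnmt1, Dnmt3a, Dnmt3b, Dnmt3l and Uhrf1), where 20.5% of tested genes did so and 41.9% did not overlap in either direction. Relative to the 4OHT control 5 of 9 did (Dnmt3a, Dnmt3b, Dnmt3l, Uhrf1 and Tet2), where the share of tested genes was 23.7%, or 48.2% in either direction. None of the 9 lay wholly above the 4OHT control, where 24.5% of tested genes did, or wholly above the EtOH control, where 21.3% did. The demethylation genes Tet1, Tet3 and Tdg overlapped both controls.

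Between the controls, Dnmt1 and Uhrf1 were lower in every 4OHT control library than in every EtOH control library, 2 of 9 members where 17.0% of tested genes were, and 35.1% did not overlap in either direction. With the replicate number as a block, the members called between the controls numbered 5 in place of 1. Of all 16224 tested genes, 5323 were then called in place of 2987. Dnmt3b was then higher in the 4OHT control (log2 fold change 0.21, adjusted p = 0.00034), as were Tet2 (0.23, adjusted p = 9.7e-06) and Dnmt3a (0.13, adjusted p = 0.047), and Dnmt1 was lower (-0.11, adjusted p = 0.013). Without the block these had adjusted p of 0.073 for Dnmt3b, 0.34 for Tet2, 0.49 for Dnmt3a and 0.12 for Dnmt1. The call of Dnmt3b was also made without a filter on low counts (0.0075) and without 4OHT control replicate 1 (0.018), and that of Tet2 without a filter (0.0016). Over 16 alternatives the adjusted p ran from 0.00034 to 0.25 for Dnmt3b, from 9.7e-06 to 0.67 for Tet2, from 0.047 to 0.94 for Dnmt3a and from 0.013 to 0.28 for Dnmt1. The means of Dnmt3b and Tet2 were lower in labelled KO cells than in both controls, while the controls themselves were in the order 4OHT control above EtOH control for both genes in each replicate number: the log2 ratios of Dnmt3b were 0.17, 0.22 and 0.22, and those of Tet2 were 0.28, 0.17 and 0.23.

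Levels of different genes were compared per kilobase of annotated exon. In labelled KO cells Dnmt3l (95.2 ± 17.0 CPM per kb, SD, n = 3), Tet1 (90.0 ± 6.75) and Uhrf1 (87.8 ± 6.60) overlapped at the top. They were followed by Dnmt1 (51.8 ± 1.98), Dnmt3b (37.2 ± 3.29), Tet2 (16.0 ± 2.70), Dnmt3a (12.7 ± 1.86), Tdg (5.22 ± 0.67) and Tet3 (1.93 ± 0.25 CPM per kb). The top 3 were separate in the 4OHT control, with Dnmt3l at 119 to 146, Uhrf1 at 95.3 to 108 and Tet1 at 85.8 to 91.8 CPM per kb. They were separate too in the EtOH control, with Dnmt3l at 143 ± 9.02, Uhrf1 at 118 ± 4.57 and Tet1 at 92.7 ± 7.23 CPM per kb, and Dnmt3b (58.4 ± 3.95) and Dnmt1 (57.0 ± 1.05) overlapped. Thus Dnmt3b stood below Dnmt1 in every labelled KO library, with 34.3 to 40.8 CPM per kb for Dnmt3b and 49.7 to 53.6 for Dnmt1. In the 4OHT control Dnmt3b (67.4 ± 5.82 CPM per kb) stood above Dnmt1 (52.9 ± 0.90). With the longest transcript as length, Dnmt3l (156 ± 27.8 CPM per kb) did not overlap Uhrf1 (104 ± 7.84) or Tet1 (96.8 ± 7.27) in labelled KO cells either. Tet2 and Dnmt3a overlapped in labelled KO cells and in the 4OHT control and were separate in the EtOH control, where Tet2 had 18.2 ± 2.06 and Dnmt3a 15.6 ± 0.80 CPM per kb. That overlap depends on the length used: per kilobase of the longest transcript, Tet2 lay above Dnmt3a in all groups, as in labelled KO cells with 25.8 to 35.0 for Tet2 and 18.4 to 24.7 CPM per kb for Dnmt3a.

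**Figure D3:**
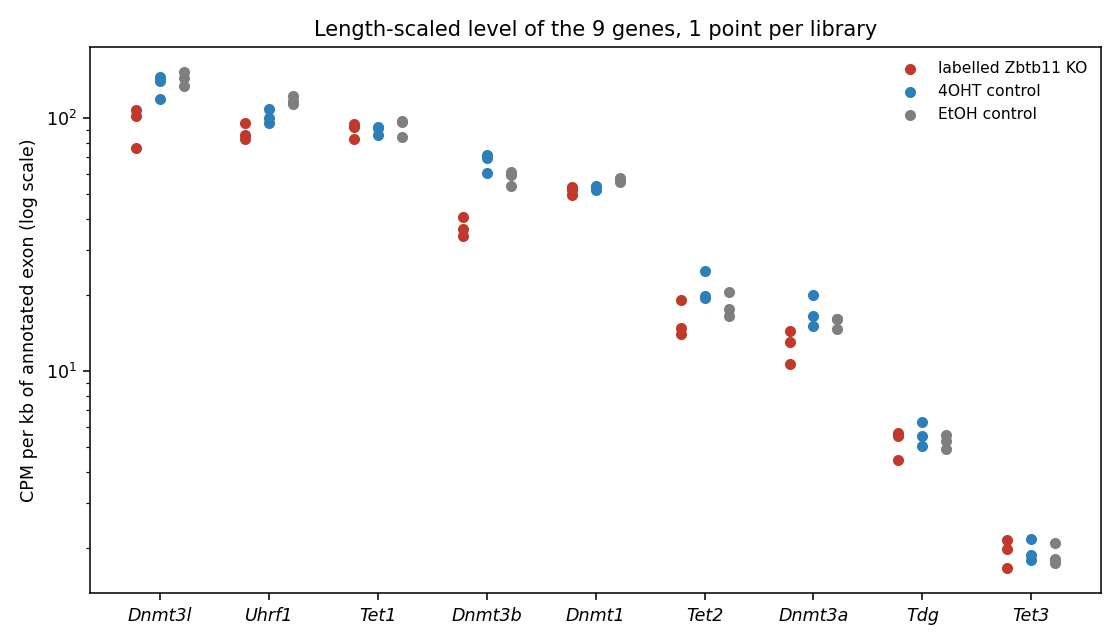
Level of each gene in CPM per kb of annotated exon on a log axis, 1 point per library, for labelled KO cells, the 4OHT control and the EtOH control. Dnmt3l, Uhrf1 and Tet1 lie highest, Tet3 lies lowest near 2 CPM per kb, and Dnmt3b and Dnmt1 change places between labelled KO cells and the 4OHT control.

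As a share of the summed per-kilobase level of the 3 Tet genes, Tet1 made up 83.4% ± 1.77 in labelled KO cells, 79.4% ± 1.77 in the 4OHT control and 82.2% ± 0.96 in the EtOH control (SD, n = 3 each). Dnmt3b made up 18.9% ± 0.71 of the summed Dnmt level (Dnmt1, Dnmt3a, Dnmt3b and Dnmt3l) in labelled KO cells, 24.7% ± 2.18 in the 4OHT control and 21.3% ± 1.56 in the EtOH control. With the length of the longest transcript in place of all exons, these shares were 75.0%, 69.6% and 73.3% for Tet1 and 15.3%, 20.1% and 17.2% for Dnmt3b in the same group order.

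The genes with the pattern nearest to Dnmt3b over the 9 libraries were sought among 11038 genes, by the root mean square difference of log2 CPM centred on the gene's own mean. They were Twf2, which encodes an actin-binding protein (difference 0.06), Gins2, a subunit of the replicative helicase (0.07), and Isyna1, an enzyme of inositol synthesis (0.08), where Dnmt3b itself varied by 0.38 about its mean. These genes had log2 fold changes against the EtOH control of -0.57 for Twf2, -0.55 for Gins2 and -0.62 for Isyna1. They were picked for likeness to Dnmt3b over these same libraries, so values near its own (-0.65) follow from the choice. Of the 11038 genes, 5081 differed from Dnmt3b by less than 0.38. For Uhrf1, which varied by 0.19 about its mean, the nearest were Fpgs (0.03) and Shmt1 (0.05), both enzymes of folate metabolism, and Gpn1, a GTPase (0.05). Of 11038 genes, 3248 differed from Uhrf1 by less than 0.19. All 9 points of such a likeness share their libraries.

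The lists of genes that work with the enzymes were mixed. Their counts stand beside 27.2% of all tested genes called against the EtOH control and 38.9% against the 4OHT control. Some lists share genes, so their counts are not independent of one another. Among the genes named below, Pcna and Hells (maintenance partners) and Ung (base excision repair) are also in the S phase list. Among 16 partners of maintenance methylation 5 fell and 1 rose in labelled KO cells against the EtOH control, and 5 fell and 2 rose against the 4OHT control (median log2 fold change -0.06 and -0.12), or 37.5% and 43.8% called. Falls against the EtOH control were called for Ehmt2 (-0.47, adjusted p = 0.00012) and Ehmt1 (-0.28), which methylate histone H3, for the replication clamp Pcna (-0.34, adjusted p = 0.001) and for the chromatin remodeller Hells (-0.29), while Suv39h1, a histone methyltransferase of heterochromatin, rose by 0.42. In the comparison with the 4OHT control the 5 falls became 2 without KO replicate 1 or 4OHT control replicate 2 and with library totals, and 3 without KO replicate 3 or 4OHT control replicate 3. Uhrf2, the homologue of Uhrf1 (0.07, adjusted p = 0.48), and Usp7, the deubiquitinase that binds Uhrf1 and Dnmt1 (-0.07, adjusted p = 0.26), were not called against the EtOH control.

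Among 16 regulators of de novo methylation in ES cells 7 fell and none rose against the EtOH control, and 6 fell and 3 rose against the 4OHT control (medians -0.11 and -0.13), or 43.8% and 56.2% called. Falls against the EtOH control included Morc1, known for silencing transposons in the male germline (-0.58, adjusted p = 6e-06), the H3K36 methyltransferase Nsd2 (-0.40), and Trim28 (-0.34, adjusted p = 5e-05) and Setdb1 (-0.31), which together silence retroviral elements. Prdm14, which represses Dnmt3b and Dnmt3l in ES cells (0.07, adjusted p = 0.81), and Zfp57, which guards imprinted methylation (-0.10, adjusted p = 0.67), were not called, although Zfp57 was with the replicate block (0.017; range 0.017 to 0.99).

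Dppa3, also in that list, protects methylation in the zygote and restrains Uhrf1 when abundant, and it moved differently against each control. It had 30.8, 29.2 and 30.1 CPM in labelled KO libraries, 21.7, 11.2 and 14.8 CPM in 4OHT controls, and 46.4, 42.3 and 45.7 CPM in EtOH controls. The 3 groups did not overlap, and the labelled KO libraries stood between the controls. Dppa3 fell by 0.58 against the EtOH control (adjusted p = 0.035), rose by 0.90 against the 4OHT control (adjusted p = 0.0041), and was lower by 1.48 in the 4OHT control than in the EtOH control (log2 fold change -1.48, adjusted p = 0.00052). The fall against the EtOH control lost its call with library totals (0.063), without EtOH control replicate 1 (0.092), 2 (0.069) or 3 (0.081) and without KO replicate 1 (0.086), 2 (0.097) or 3 (0.078), in a range of 1.7e-10 to 0.097.

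Readers of methylated CpG sites gave 4 rises and 2 falls among 11 genes against the EtOH control, and 3 rises and 2 falls against the 4OHT control (medians 0.20 and 0.08), or 54.5% and 45.5% called. Zbtb33 (Kaiso) rose by 0.36 and Mbd3, which lost its affinity for methylated DNA in mammals, fell (-0.30) against the EtOH control. The 4 rises became 1 without EtOH control replicate 2 or KO replicate 1, and 2 without KO replicate 3 or with DESeq2.

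Among 18 partners and regulators of Tet enzymes 5 fell and 2 rose against the EtOH control, and 7 fell and 4 rose against the 4OHT control (medians -0.13 and -0.10), or 38.9% and 61.1% called. Pspc1, a paraspeckle protein that binds Tet2 (0.34), and Rybp, a Polycomb protein (0.21), rose against the EtOH control. Rybp had a log2 fold change of -0.11 against the 4OHT control (adjusted p = 0.11, or 0.028 with the replicate block, in a range of 0.028 to 0.73) and was higher in the 4OHT control than in the EtOH control (0.32, adjusted p = 0.00036). The 5 falls became none with library totals, 1 without EtOH control replicate 2 or KO replicate 1, 2 without EtOH control replicate 3 and 3 without EtOH control replicate 1. The 7 falls against the 4OHT control became 4 without KO replicate 1 or 4OHT control replicate 3, and 3 with library totals. Ogt, the sugar transferase that binds Tet1, had a log2 fold change of 0.04 against the EtOH control (adjusted p = 0.67) and rose by 0.25 against the 4OHT control (adjusted p = 0.006).

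Downstream of Tdg, 4 of 19 genes of base excision repair fell and 1 rose against the EtOH control, and 7 fell and 3 rose against the 4OHT control (medians -0.06 and -0.11). This is 26.3% and 52.6% called, the first of them close to the 27.2% of all tested genes. Parp2, a sensor of DNA breaks (-0.51), and Ung, which excises uracil (-0.41), fell, and Gadd45a, a stress gene linked to demethylation, rose (0.46) against the EtOH control. Ung had a log2 fold change of 0.03 against the 4OHT control (adjusted p = 0.75) and was lower in the 4OHT control than in the EtOH control (-0.44, adjusted p = 0.00015). The sign of the first value turned without KO replicate 2 (-0.04) or 4OHT control replicate 3 (-0.03). The 4 falls against the EtOH control became 2 without EtOH control replicate 2 or with library totals.

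Of 26 genes of methyl donor supply, the folate and methionine cycles that make S-adenosylmethionine, 11 fell and none rose in labelled KO cells against the EtOH control, and 8 fell and 2 rose against the 4OHT control (medians -0.12 and -0.10), or 42.3% and 38.5% called, the second close to the 38.9% of all tested genes. The falls became 7 without EtOH control replicate 2 or 3. Enzymes of the folate branch fell against the EtOH control: Mthfd1l by 0.58, Mthfd2 by 0.45, Shmt1 by 0.40 and Shmt2 by 0.31. The enzymes nearest to the methyl donor were not called, with log2 fold changes of -0.04 for Mat2a, which makes S-adenosylmethionine (adjusted p = 0.76; 0.03 with library totals), and -0.01 for Ahcy, which removes its product (adjusted p = 0.92; 0.06 with library totals).

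**Figure D4:**
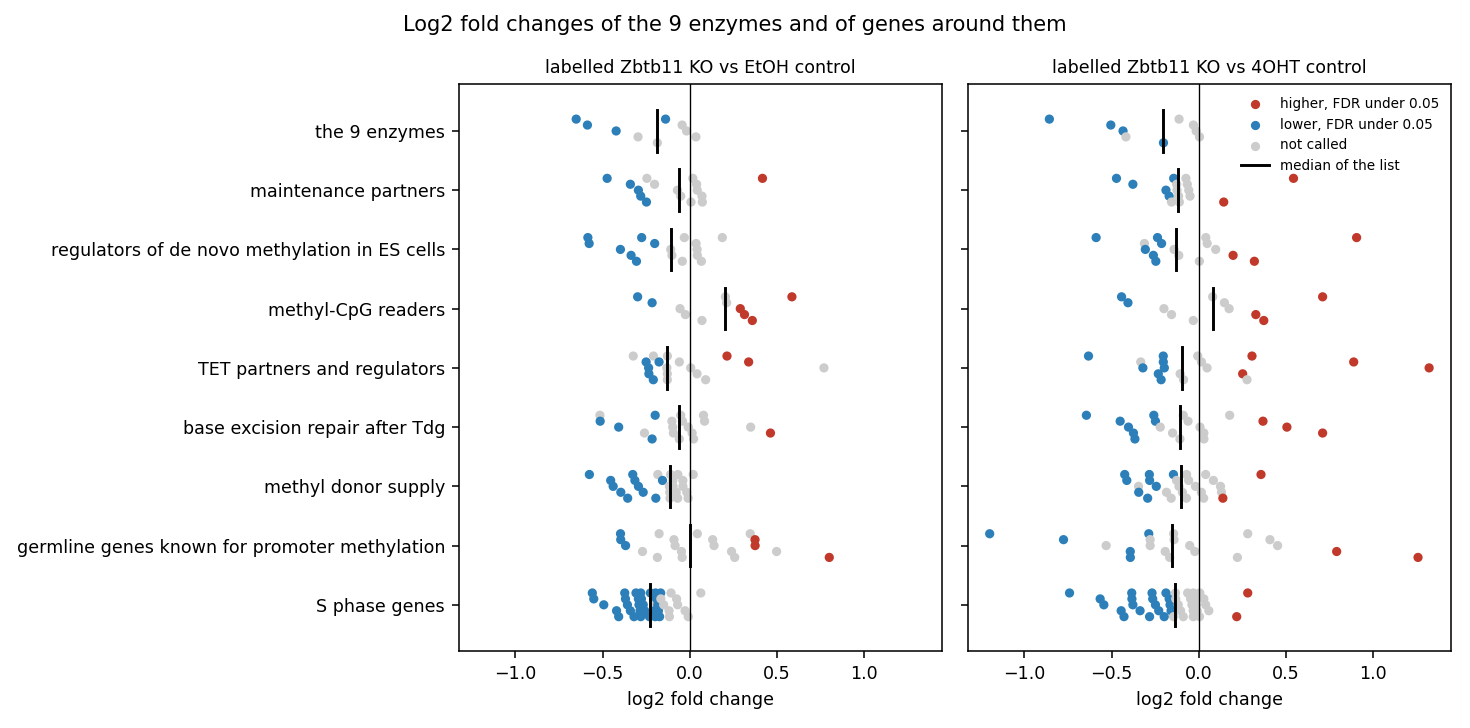
Log2 fold changes of the 9 enzymes and of the genes in each list around them (points) with the median of the list (line), for labelled KO cells against the EtOH control and against the 4OHT control. Most S phase genes lie left of 0 against the EtOH control, with 30 of 41 called lower, while readers of methylated CpG sites have their median right of 0 (0.20).

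The largest fall among the genes named here was in Trdmt1, which shares the catalytic fold of the DNA methyltransferases but methylates transfer RNA. It had 4, 6 and 7 counts in labelled KO libraries (0.17, 0.29 and 0.36 CPM), 226, 171 and 240 counts in the 4OHT control (10.7, 10.0 and 11.5 CPM), and 189, 199 and 123 counts in the EtOH control (8.60, 8.70 and 7.35 CPM). All labelled KO libraries were far below both controls, with log2 fold changes of -4.91 against the EtOH control (SE 0.22, adjusted p = 7.8e-11) and -5.29 against the 4OHT control (SE 0.21, adjusted p = 1.5e-11). Among the 9 enzymes themselves no change exceeded 0.86 on the log2 scale.

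Markers of other cell states moved in some comparisons. Formative and primed epiblast markers, of a state in which Dnmt3b is known to be high, summed to 438 to 512 CPM in labelled KO cells, 651 to 707 CPM in 4OHT controls and 523 to 553 CPM in EtOH controls, an order that Dnmt3b shared. Of 8 tested of 10, 4 fell against the 4OHT control and 2 against the EtOH control, where 19.8% and 14.2% of all tested genes were called lower. Pou3f1, 1 of the 10, was at 0 in labelled KO cells and in the 4OHT control, while none of the 10 was at 0 in the EtOH control. The single markers did not all follow the order of the sum. Against the EtOH control their log2 fold changes ran from -0.79 to 0.55 (median -0.03), with 25% called, close to all tested genes. Against the 4OHT control they ran from -0.96 to 0.66 (median -0.56). Primitive endoderm markers summed to only 21.4 to 25.3 CPM in labelled KO cells, 11.7 to 13.2 CPM in 4OHT controls and 13.4 to 19.4 CPM in EtOH controls, with 4 of 6 tested genes (of 8) higher against the 4OHT control and 3 against the EtOH control. Trophectoderm markers summed to 89.6 to 95.1 CPM in labelled KO cells, 55.5 to 74.5 CPM in 4OHT controls and 88.2 to 93.3 CPM in EtOH controls, with 5 of 8 higher against the 4OHT control and 1 against the EtOH control. Mesoderm, neural and fibroblast markers summed to at most 7.97, 70.5 and 23.9 CPM in any library. In the ES identity list 2 of 12 fell against the EtOH control and 5 against the 4OHT control. This is 16.7% and 41.7% of the list, the second close to the share of all tested genes. Of that list Nanog (0.05, adjusted p = 0.83) and Pou5f1 (-0.14, adjusted p = 0.064) were not called against the EtOH control, and Pou5f1 was with RLE factors (0.050), DESeq2 (0.041), the block (0.0024) or without KO replicate 2 (0.005), in a range of 0.0024 to 0.36. Pou5f1 fell by 0.24 against the 4OHT control (adjusted p = 0.0021), where Nanog had 0.40 (adjusted p = 0.068) and was called with the block (3e-09), without a filter (1.6e-10), without KO replicate 2 (0.044) or without 4OHT control replicate 1 (0.0065), in a range of 1.6e-10 to 0.19. The part of any of these markers in the changes of the enzymes was not tested.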

How the data were processed

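Each library has 1 deposited file of raw counts, whole numbers of reads for each gene, with 5 closing rows that name no gene, which were left out. Named in the submitters' processing notes, without roles, are the build mm9 and STAR, HTSeq, cutadapt, edgeR, Bowtie 1.1.2, MACS2 and DiffBind. No source used here states whether counting used strand. Symbols came from GENCODE M21 (32620 of 37310 identifiers matched; genes without a symbol held 3.92% of gene counts), exon lengths and overlaps from the same annotation, and promoter windows from RefSeq on GRCm38.p6, another build than that of the counts. Reads assigned to no gene made up 26.4% to 33.8% of reads, and reads assigned to more than 1 gene 0.78% to 0.908%.

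The test was the quasi-likelihood F test of edgeR 4.0.16 (with limma 3.58.1 under R 4.3.3), with TMM scaling and filterByExpr. A mean was fitted for each group across all 9 libraries, over 16224 genes. Called means a Benjamini-Hochberg adjusted p under 0.05, and rose and fell refer to such calls. CPM are scaled by TMM. SE is the absolute log2 fold change divided by the square root of the F statistic of this test, so it carries the test's own adjustment of spread. The script was tested on simulated counts with known changes. Alternatives were RLE factors, library totals, DESeq2 1.42.0, no filter, a filter at 1 CPM in 3 libraries, a fit of the groups compared, the replicate number as a block, and leaving out each library. Genes were named by a rule: the 9 members, Zbtb11, 15 further regulators, up to 4 genes with the smallest p in each list, and the 3 genes nearest in pattern to the member with the smallest p of each comparison. Genes that share exons with a member, its copies and Pou3f1 are named outside the rule, Pou3f1 after its values were seen, and some genes that the rule selects are not reported here. The members, lists and rule were chosen with earlier results of these data known. The promoter of 300 bases was searched for the E2F, GABP and CCAAT letters only.

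No label says that replicates were separate cultures, and p-values therefore reflect the spread among libraries only, part of which may be technical. The 3 groups share replicate numbers. Deviations from the group means correlated across genes in each of the 9 same-number pairs (0.109 to 0.311), so the numbers pair the libraries, by the data and not by a label. The 18 pairs with different numbers had correlations of -0.225 to -0.022. These are no separate evidence, because centring each group on its own mean makes them negative on average when same-number pairs are positive.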

Additional observations from a re-analysis of the deposited data

How the results depend on the processing

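Against the EtOH control, the falls of Dnmt3b (log2 fold change -0.74 to -0.58), Dnmt3l (-0.70 to -0.45) and Uhrf1 (-0.50 to -0.35) were called in 16 of 16 alternatives, and against the 4OHT control so were those of Dnmt3a, Dnmt3b and Dnmt3l. With the replicate block, genes called numbered 6936 against the EtOH control (4417 without it) and 5323 between the controls (2987 without it). Members called between the controls numbered 5 with the block and 3 without a filter on low counts, in place of 1. Without that filter several genes, such as Tet2, Dnmt3a and Nanog, had much smaller adjusted p at nearly the same log2 fold change. Dnmt1 against the EtOH control went the other way (edgeR adjusted p 0.035 with the filter and 0.073 without). The cause was not examined. Leaving out 1 library gave 3067 to 4559 genes called against the EtOH control, 5011 to 6268 against the 4OHT control and 1974 to 3069 between the controls, with the lowest without EtOH control replicate 2. It gave 3 to 5 members called in each comparison of labelled KO cells, and 0 to 1 between the controls, with 0 without EtOH control replicate 2 or 3 or 4OHT control replicate 3. With the longest transcript as length, Tet1 made up 75.0% of the Tet level in labelled KO cells, 69.6% in the 4OHT control and 73.3% in the EtOH control, and Dnmt3b 15.3%, 20.1% and 17.2% of the Dnmt level. No called change reversed. Among values that were not called, library totals turned the sign against the EtOH control of Tet1 (0.027), Tdg (0.051), Mat2a (0.031) and Ahcy (0.061), and against the 4OHT control of Dnmt1 (0.052) and Tet3 (0.068). Tet1 against the 4OHT control was -0.0080 with RLE factors, -0.018 with DESeq2 and -0.0011 without a filter. Leaving out 1 library moved these across 0 against the EtOH control: Tet1 (-0.11 to 0.0016), Tet3 (-0.053 to 0.12), Tdg (-0.091 to 0.079), Prdm14 (-0.075 to 0.21), Zfp57 (-0.22 to 0.013), Ogt (-0.017 to 0.081), Mat2a (-0.14 to 0.028), Ahcy (-0.063 to 0.023) and Nanog (-0.063 to 0.14). It did so against the 4OHT control for Tet1 (-0.041 to 0.055), Tet3 (-0.10 to 0.073) and Ung (-0.039 to 0.071), and between the controls for Tet3 (-0.041 to 0.13) and Tdg (-0.0012 to 0.17). The causes were not tested. SE of the 9 members ran from 0.05 (Dnmt1) to 0.15 (Tet2) and did not follow their counts, since Tet3 and Tdg, with the fewest, had 0.10.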

Other observations

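Germline genes that are known to be kept silent by promoter methylation moved in both directions. Of 20 tested, 3 rose and 3 fell in labelled KO cells against the EtOH control (median log2 fold change -0.00), 2 rose and 5 fell against the 4OHT control (-0.16), and 6 were higher and 3 lower in the 4OHT control than in the EtOH control (0.18). These are 30%, 35% and 45% of the list called, where 27.2%, 38.9% and 18.4% of all tested genes were, so the first 2 counts are close to those of all genes. Sycp3, a protein of the meiotic chromosome axis, had 19.4, 21.7 and 23.8 CPM in labelled KO libraries and 16.8, 16.1 and 17.0 CPM in EtOH controls (log2 fold change 0.37, edgeR adjusted p = 0.0063). In 4OHT controls Sycp3 had 18.6, 17.2 and 19.6 CPM, which overlapped the labelled KO libraries. The log2 fold change against the 4OHT control was 0.22 and was not called (adjusted p = 0.064). Mael, which acts in transposon silencing in the germline, had 7.94, 8.61 and 7.38 CPM in labelled KO libraries, 19.6, 17.8 and 17.5 CPM in 4OHT controls, and 10.9, 9.45 and 10.6 CPM in EtOH controls. Labelled KO libraries were the lowest for Mael and the 4OHT control the highest. Mael fell by 1.20 against the 4OHT control (adjusted p = 2e-07) and by 0.37 against the EtOH control (adjusted p = 0.017), and the second call ended with library totals (0.056), without KO replicate 3 (0.052) or EtOH control replicate 1 (0.064) or 3 (0.051), in a range of 0.0032 to 0.064. Tuba3a, a testis tubulin, had 111, 125 and 126 CPM in labelled KO libraries, 62.9, 72.5 and 74.2 CPM in 4OHT controls, and 148, 160.4 and 169 CPM in EtOH controls. Here the labelled KO libraries stood between the controls, so that Tuba3a fell by 0.40 against the EtOH control and rose by 0.79 against the 4OHT control. Without EtOH control replicate 3, KO replicate 1 or KO replicate 2, the 3 rises against the EtOH control became 1. Without 4OHT control replicate 1 the counts against the 4OHT control were 4 rises and 3 falls, and without KO replicate 1 there were 3 falls. Between the controls the 3 lower genes became 1 without EtOH control replicate 2 or 3 or 4OHT control replicate 2.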
